A study of Mus musculus with 6 samples.

Results

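The named ribosomal protein pseudogenes are the 322 genes of the deposited table whose names begin with Rpl or Rps and end in -ps, with or without a number. They were chosen by name alone, out of 55411 annotated genes, and each was read beside its parent, the gene whose name stands before -ps. Of the 322, 199 carry the name of a large subunit gene and 123 that of a small subunit gene. They point to 64 parents, and Rpl48-ps1 has no row for its parent.

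RNA was taken from the hippocampus of mice, from 3 CLO samples labelled as exposed to clothianidin, a neonicotinoid insecticide, and 3 Ctrl samples labelled as vehicle control. The series text describes C57BL/6N males dosed with CLO at 50 mg/kg/day. Its title speaks of paternal exposure, and its extraction protocol of the hippocampus of offspring. Whether the CLO samples are the dosed males or their offspring is not certain from the labels. The labels give no age, and no genetic change is stated for either group. Each library was made from poly(A)-selected RNA with a kit that keeps strand. The labels do not say that replicates came from separate animals, so p-values measure the spread between these samples, which may be technical.

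A processed pseudogene is a copy of a spliced messenger RNA that was reverse transcribed and inserted elsewhere in the genome. It has no introns and usually no promoter of its own. Genes of ribosomal proteins, the protein components of the ribosome's large (Rpl) and small (Rps) subunits, are among the richest sources of such copies in mammals. Because a young copy differs from its parent at only a few bases, a short read can match both equally well, and the count of each depends on how such reads are assigned. How the authors' counting treated reads with several matches is not given in the sources used here, so the counts of near-identical copies are uncertain throughout.

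The Rps2 family held the pseudogenes with the smallest p-values between CLO and Ctrl. Rps2 encodes a protein of the small subunit near the entry of messenger RNA. The lines show how close these copies are to the parent. They give coding bases 301 to 400 (position 1 is the A of the start codon) from GENCODE M21 transcripts, 5′ to 3′ on the coding strand, with capitals at the positions where any of the lines differs.
Rps2: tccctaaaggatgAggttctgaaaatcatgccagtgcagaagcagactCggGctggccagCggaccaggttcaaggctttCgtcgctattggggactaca
Rps2-ps7: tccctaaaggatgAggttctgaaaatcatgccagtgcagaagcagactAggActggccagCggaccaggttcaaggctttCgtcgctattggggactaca
Rps2-ps6: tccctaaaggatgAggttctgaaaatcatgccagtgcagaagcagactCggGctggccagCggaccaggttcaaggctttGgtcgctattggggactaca
Rps2-ps8: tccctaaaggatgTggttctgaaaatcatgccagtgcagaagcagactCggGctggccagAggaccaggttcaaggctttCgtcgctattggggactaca
Rps2-ps13: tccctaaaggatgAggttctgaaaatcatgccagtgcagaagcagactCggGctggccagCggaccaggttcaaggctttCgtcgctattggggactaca
Here Rps2-ps7 carried C349A and G352A, Rps2-ps6 carried C381G, and Rps2-ps8 carried A314T and C361A. Rps2-ps13 was the same as Rps2 over these bases. Elsewhere in the coding sequence all 6 Rps2 pseudogenes compared shared T60A, T204C and T756C.

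The libraries held 19502748, 21041621 and 20650434 counts in CLO replicates 1 to 3 and 25053948, 26603386 and 26517233 in Ctrl replicates 1 to 3, so CLO was sequenced less deeply throughout. All 10 listed markers of hippocampal neurons had counts in each library. Of 9 listed spermatid genes, 7 were at 0 in each CLO library and 6 in Ctrl replicate 3, but 0 of the 9 in Ctrl replicates 1 and 2. The 6 neocortex markers summed to 108 to 167 CPM (a gene's counts scaled to a common library total) in CLO and to 142 to 245 CPM in Ctrl. Without both Ctrl libraries that hold spermatid transcripts, which leaves Ctrl replicate 3 as the lone control, the median log2 fold change of the pseudogenes tested was 0.64, against 0.60 with all libraries. Whether the neocortex markers bear on the pseudogenes was not tested.

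Of the 322 pseudogenes, 109 had no count in any library, 38 had 1 to 9 counts over all 6 and 175 had 10 or more. A few copies held most of the counts. Those with 10000 counts or more numbered 21, and the 12 highest held 45.0% of all pseudogene counts. By the reference annotation (GENCODE M21, matched by identifier for 321), 303 were processed pseudogenes, 9 were transcribed processed pseudogenes, 8 were protein coding and 1 was a long intergenic noncoding RNA. Their median length in the deposited length column was 463 bp, against 1993.5 bp for the parents. Another gene overlapped 37 of them on the same strand, 22 of which had 10 or more counts, and no gene on either strand overlapped 220. Chromosome X carried 37, more than any other chromosome.

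Counts followed the likeness to the parent. Identity to the parent transcript could be computed for 320 pseudogenes, with a median of 95.6%. Of the 79 below 90%, 63 had no count and 6 had 10 or more. Among the 75 from 95% up to 98%, 58 had 10 or more counts. Of the 58 at 99% or more, 57 had 10 or more counts, with a median of 4948.5 counts, and these 58 held 76.3% of all pseudogene counts. Over the 320 pseudogenes, Spearman's rho between identity and mean CPM was 0.817. It was 0.886 when likeness was taken as the share of a pseudogene's 50-base words that also stand in the parent. The points share their libraries and many share a parent, so rho is given as a description only.

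**Figure D1:**
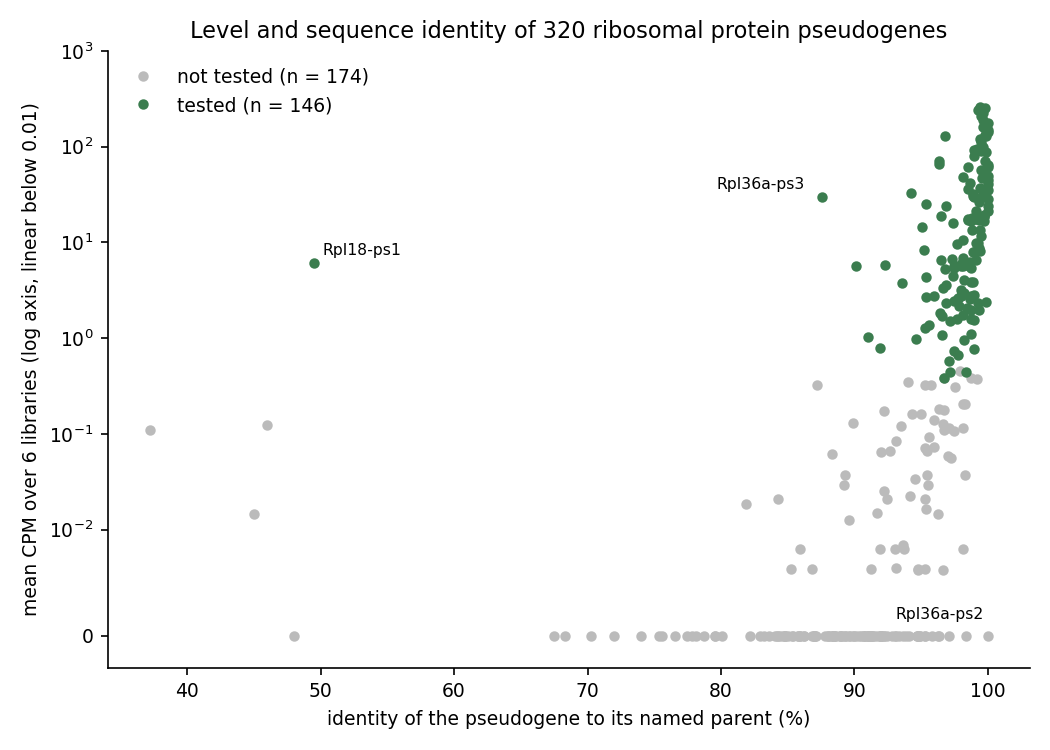
Mean level of each of 320 pseudogenes over the 6 libraries (CPM, log axis, linear below 0.01) against the percent identity to its named parent, with the 146 that passed the filter on low counts in green and the 174 that did not in grey. High levels lie almost wholly above 95% identity, with Rpl18-ps1 and Rpl36a-ps3 as named exceptions at low identity and Rpl36a-ps2 at 100% with no count.

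The exceptions were few, and those named here were picked after their values were seen. Rpl18-ps1 was only 49.5% identical to Rpl18. Rpl36a-ps3, at 87.5% to Rpl36a, was 99.7% identical to Rpl36al, a retained coding copy of Rpl36a. For Rpl36a-ps3 the named parent is therefore not the closest sequence. In the other direction, 4 pseudogenes at 98% or more had under 10 counts, namely Rpl36a-ps2, Rpl17-ps4, Rpl19-ps6 and Rpl31-ps17. Rpl36a-ps2 was identical to Rpl36a over its whole length and had 0 counts. It overlaps Ddah1 on the same strand.

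Some copies stand in arrays. On chromosome X, from 122194741 to 124894987 (GRCm39), lie 13 Rps12 pseudogenes that were 96.3% to 100% identical to each other. Rps12 encodes a small subunit protein. The 9 members of this array that were 97.49% to 97.99% identical to Rps12 each had 332 counts or more, and the 4 that were 95.3% to 95.5% identical had under 10. Together the 13 reached 36.4, 50.3 and 58.2 CPM in CLO replicates 1 to 3, against 37.3, 26.9 and 27.8 CPM in Ctrl replicates 1 to 3. CLO replicate 1 lay below Ctrl replicate 1, so the groups overlapped. On chromosome 7, from 31302719 to 33397162, lie 6 Rpl23a pseudogenes that were 83.6% to 86.0% identical to Rpl23a, and all 6 had 0 counts.

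The pseudogenes took 0.465%, 0.609% and 0.613% of all gene counts in CLO replicates 1 to 3, against 0.475%, 0.414% and 0.427% in Ctrl replicates 1 to 3. CLO replicates 2 and 3 were higher than any Ctrl library and CLO replicate 1 was not. Relative to the summed counts of their parents, the pseudogenes held 23.20%, 23.51% and 23.20% in CLO replicates 1 to 3 and 19.85%, 21.86% and 21.95% in Ctrl replicates 1 to 3. By this measure every CLO library lay above every Ctrl library. Summed over the 322, the level scaled by TMM (trimmed mean of M-values, a correction for library composition) was 4460, 6283 and 6466 CPM in CLO and 4518, 4119 and 4351 CPM in Ctrl. The difference of the group means was 0.39 log2 units, with a pooled SD of 0.22 between libraries, and the groups overlapped.

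**Figure D2:**
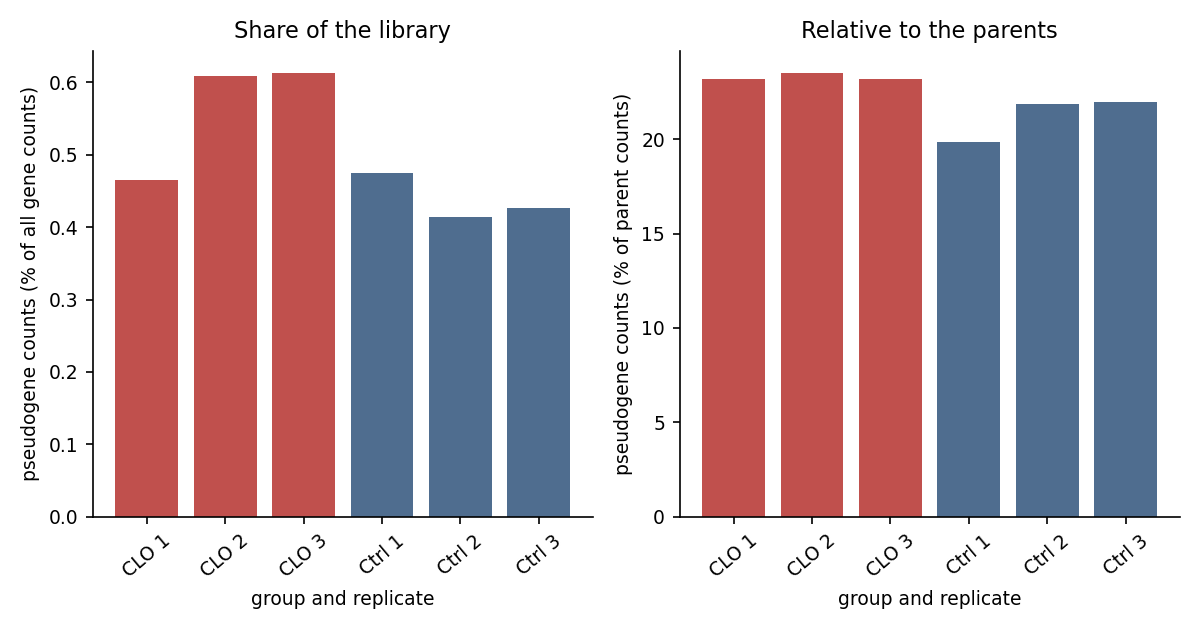
Counts of the 322 pseudogenes in each library as a percent of all gene counts (left) and of the counts of their parents (right), 1 bar a library, CLO in red and Ctrl in blue. CLO replicate 1 is level with the Ctrl libraries on the left, while on the right all 3 CLO bars, at 23.20% to 23.51%, stand above the Ctrl bars, at 19.85% to 21.95%.

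The 12 pseudogenes with the highest mean level were Rpl21-ps15, Rpl7a-ps11, 5 copies of Rpl17, Rps6-ps4, Rps12-ps3, Rpl15-ps3, Rps27a-ps2 and Rpl9-ps6. The parents of most encode core proteins of the subunits, and Rps27a encodes a fusion of ubiquitin with a small subunit protein. All but Rpl9-ps6 were 99% or more identical to their parent, and Rps6-ps4, Rps12-ps3 and Rpl15-ps3 had no difference from it. Rpl9-ps6 was 96.8% identical over its whole length and 99.8% over the coding sequence.

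Rpl21-ps15, on chromosome X from 149998163 to 149998645, reached 226, 287 and 278 CPM in CLO replicates 1 to 3 and 286, 240 and 217 CPM in Ctrl replicates 1 to 3. The groups overlapped fully, with a log2 fold change of 0.09 ± 0.16 (SE). It differed from Rpl21 by T336C, G378A and T432C. Per length, it stood at a mean of 1174 TPM (a level that also divides by gene length) in CLO and 1218 TPM in Ctrl. Rpl21 stood at 111 TPM in CLO and 101 TPM in Ctrl. Much of this gap lies in the deposited lengths, 483 bp for Rpl21-ps15 and 3400 bp for Rpl21. In counts over the 6 libraries, the copy had 35495 and Rpl21 had 22063. T432C was shared by 10 of the 11 Rpl21 pseudogenes compared base by base.

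Rpl7a-ps11, also on chromosome X, from 165637207 to 165638007, reached 220, 297 and 305 CPM in CLO and 254, 201 and 240 CPM in Ctrl. CLO replicate 1 lay below 2 of the Ctrl libraries. Its log2 fold change was 0.24 ± 0.17 (SE). Only A186G and A747C set it apart from Rpl7a, and A186G was shared by all 5 Rpl7a pseudogenes compared.

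The 5 highest Rpl17 copies differed from one another by library. Rpl17-ps3 stood at 113, 240 and 240 CPM in CLO and at 195, 174 and 166 CPM in Ctrl. CLO replicate 1 was the lowest of the 6 libraries. Rpl17-ps9, with 117, 216 and 220 CPM in CLO and 130, 140 and 138 CPM in Ctrl, had the same low replicate. Rpl17 itself reached 240, 280 and 256 CPM in CLO and 189, 205 and 195 CPM in Ctrl, without overlap. All 11 Rpl17 pseudogenes together had 319%, 462% and 515% of the counts of Rpl17 in CLO replicates 1 to 3. In Ctrl replicates 1 to 3 they had 448%, 468% and 473%.

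Of the other copies among the 12, Rps6-ps4 stood at 155, 201 and 237 CPM in CLO and at 173, 145 and 157 CPM in Ctrl. Its parent Rps6 encodes the small subunit protein that S6 kinases phosphorylate. Rps12-ps3, which the reference lists as protein coding, stood at 123, 174 and 182 CPM in CLO and at 151, 123 and 131 CPM in Ctrl. Rpl9-ps6, also listed as protein coding, stood at 108, 165 and 159 CPM in CLO and at 97.4, 121 and 122 CPM in Ctrl. In each of these 3 CLO replicates 2 and 3 lay above the Ctrl range, while CLO replicate 1 lay within it or, for Rps12-ps3, level with the lowest Ctrl library. Rps27a-ps2 stood at 117, 163 and 152 CPM in CLO and at 150, 80.3 and 120 CPM in Ctrl, the widest spread of the 12 among Ctrl libraries by SD after Rpl21-ps15.

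Rpl15-ps3, identical to Rpl15 over its length, was the 1 gene of these 12 whose groups did not overlap. It stood at 126, 181 and 180 CPM in CLO and at 123, 113 and 120 CPM in Ctrl, a log2 fold change of 0.45 ± 0.16 (SE; edgeR, adjusted p = 0.307). CLO replicate 1 was higher than Ctrl replicate 1 by only a few CPM.

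**Figure D3:**
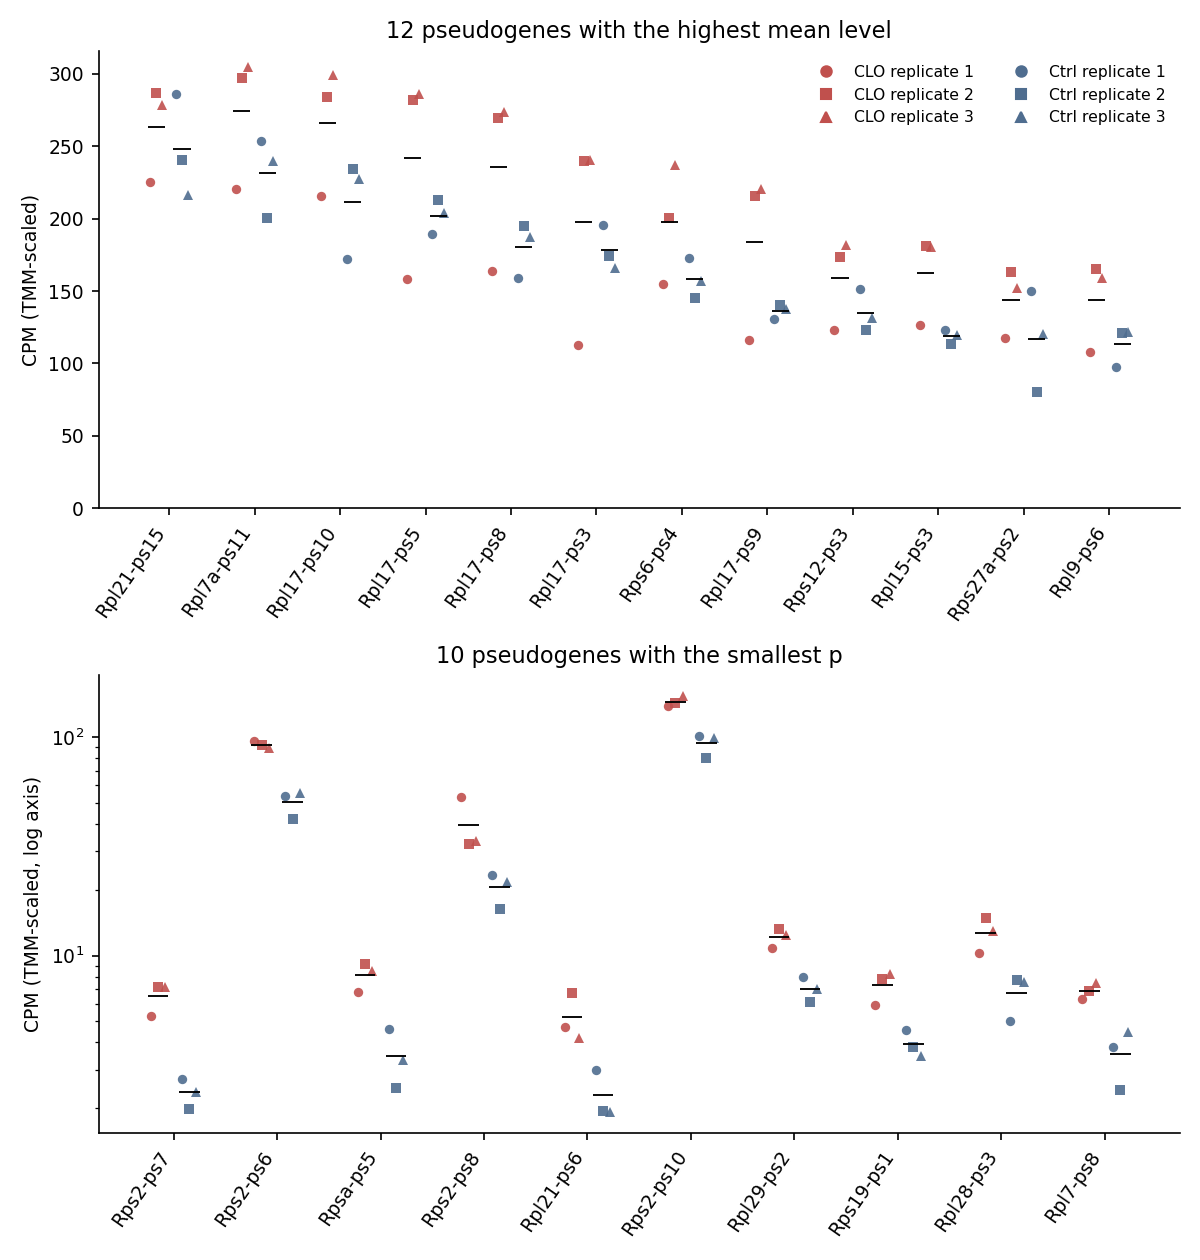
TMM-scaled CPM in each library for the 12 pseudogenes with the highest mean level (top, linear axis) and the 10 with the smallest p (bottom, log axis), with CLO in red left of Ctrl in blue, 1 symbol a replicate and a black line at the group mean. In the top row CLO replicate 1 lies among the Ctrl libraries for most genes, while in the bottom row, picked by p, the groups do not overlap.

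Counts of 5 pseudogenes exceeded those of their parent. Rpl21-ps15 had 35495 counts over the 6 libraries against 22063 for Rpl21, Rpl7a-ps11 had 34807 against 23372 for Rpl7a, and Rpl17-ps10 had 32763 against 31117 for Rpl17. The other 2 belong to Rps10, a gene of the small subunit, which had 5 counts over all libraries. Rps10-ps2, on chromosome 16 from 20640895 to 20641390, had 12651 counts and Rps10-ps1 had 1807. Rps10-ps2 was identical to Rps10 over the coding sequence. The row of Rps10 overlaps that of Gm49804, which had 0 counts, on the same strand. Rps10-ps2 reached 84.1, 123 and 121 CPM in CLO and 79.9, 72.8 and 77.4 CPM in Ctrl. The groups did not overlap, and the log2 fold change was 0.51 ± 0.17 (SE; edgeR, adjusted p = 0.291).

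Between CLO and Ctrl the pseudogenes were nearly all higher in CLO, but none passed the threshold of an adjusted p of 0.05. Of the 322, 146 passed the filter on low counts, of which 145 had a higher and 1 a lower fitted value in CLO, where 48.2% of all 16129 genes tested were higher. The median log2 fold change was 0.60 over the 146 pseudogenes and -0.01 over all genes tested. By edgeR's quasi-likelihood test 0 pseudogenes passed with Benjamini-Hochberg adjustment, against 0% of all genes. At an unadjusted p under 0.05, 94 were higher and 0 lower, against 6.18% of all genes higher and 7.26% lower. The libraries of the groups did not overlap for 72 of the 146, all higher in CLO. Of all 16129 genes, 7.84% did not overlap and were higher, and 1079 genes did not overlap and were lower.

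The filter could favour genes that are high in 1 group, so its part was counted. Of the 146 pseudogenes, 138 were above the filter's limit in all 6 libraries, 7 only through the CLO libraries and 1 only through the Ctrl libraries. All 138 were higher in CLO, by a median of 0.59 log2 units. With no filter, 213 pseudogenes had a value, 195 higher and 18 lower, against 44.2% of all genes higher.

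The count of calls depended on the test. By DESeq2, 19 of the 133 pseudogenes with an adjusted p passed, all higher in CLO, against 0.988% of all genes higher and 0.419% lower. Besides the 10 with the smallest edgeR p described further on, these included Rps2-ps13, Rps13-ps4, Rpl10-ps5, Rpl13-ps6, Rpl21-ps10, Rpl15-ps6 and Rpl5-ps1. With no filter in edgeR 31 of 213 pseudogenes passed. Of all 27303 genes in that fit 0.861% passed as higher, while 464 genes passed as lower. By limma-voom with weights for sample quality 112 of 146 passed, against 11.7% of all genes higher and 10.4% lower. All those calls of pseudogenes were higher in CLO.

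The fold change also moved with gene length. When a smooth trend with deposited gene length, fitted to each library's deviations from the genes' mean log2 CPM, was removed, the median of the 146 pseudogenes fell to 0.13, and 43 of them were below Ctrl. At an unadjusted p under 0.05, 19 were then higher and 4 lower, against 4.84% of all genes higher and 5.58% lower. Within the 146 pseudogenes, Spearman's rho between length and log2 fold change was 0.025, given as a description. Pseudogenes are short, so their class and the length trend cannot be told apart here by these fits.

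Parents were higher in CLO too, by less. Of 63 parents tested, 62 had a higher value, with a median of 0.26 log2 units, and 7 were higher at an unadjusted p under 0.05, or 11.1% against 6.18% of all genes. Their median was 0.41 without CLO replicate 1 and 0.175 without CLO replicate 3, the extremes with 1 library left out, and 0.11 with the length trend removed. With sample quality weights in limma-voom it was 0.42. The 186 tested pseudogenes named -ps that do not belong to ribosomal protein genes had a median of 0.35, with 157 higher and 29 lower. The list of cytosolic ribosomal protein genes, which holds most of the parents, had a median of 0.27 over 80 tested genes, with 9 higher and 0 lower at an unadjusted p under 0.05. None of these genes passed the adjusted threshold by edgeR. By DESeq2 0 parents passed. Of the other -ps pseudogenes, 345 had a DESeq2 value, and 11 passed as higher and 1 as lower. Over all genes with a DESeq2 adjusted p, 0.988% were higher and 0.419% lower. By limma-voom with sample quality weights 39 parents and 50 of the listed ribosomal protein genes were higher, and of the other -ps pseudogenes 59 were higher and 4 lower, against 11.7% of all genes higher and 10.4% lower. For 144 pseudogenes both the copy and the parent were tested, and the copy had the larger log2 fold change in 125 and the smaller in 19. The median of pseudogene minus parent was 0.32, with quartiles of 0.12 and 0.54, and it was 0.02 with the length trend removed. When each parent and its pseudogenes were summed into 1 row, an alternative chosen after seeing the data, all 51 families with 10 or more counts in copies and parent were higher in CLO, by a median of 0.28 log2 units. The smallest adjusted p of those sums was 0.334 by edgeR. Counted as a percent of the parent, the copies had the higher mean in CLO in 40 of the 51 families and the lower in 11.

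**Figure D4:**
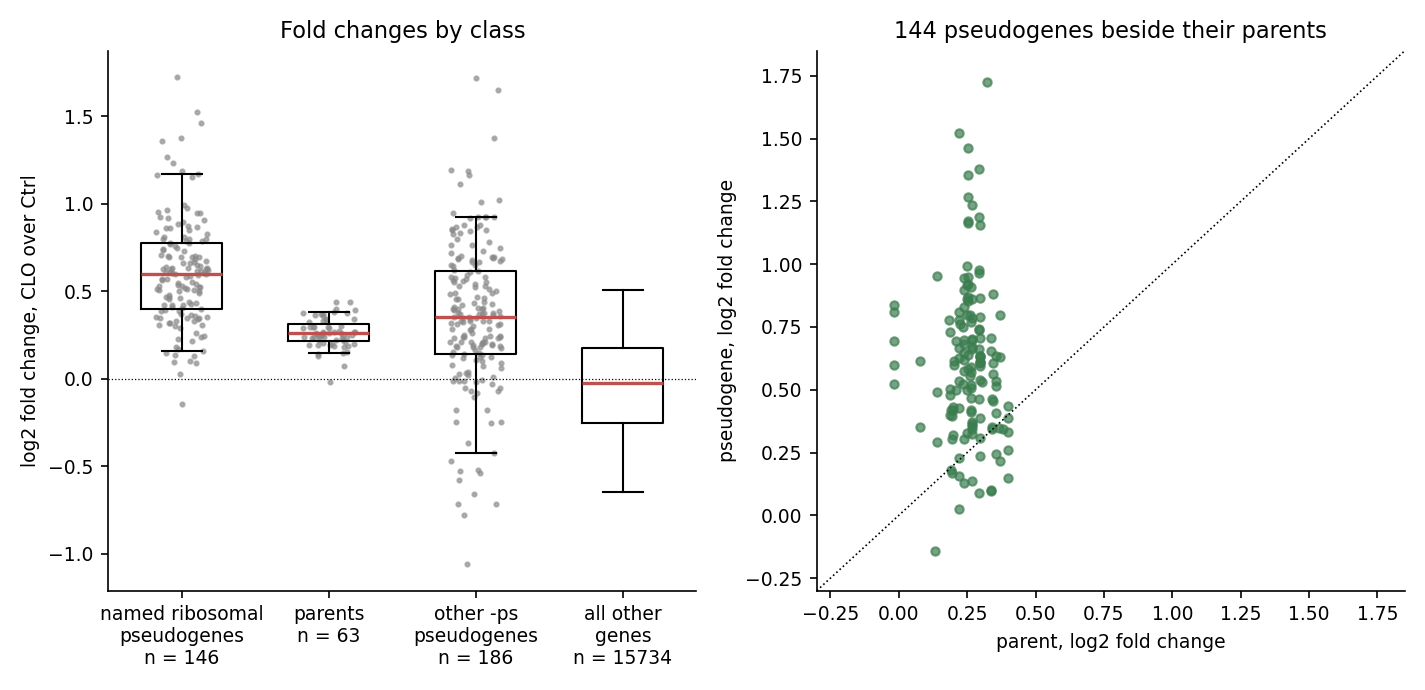
Left, log2 fold change of CLO over Ctrl for the 146 pseudogenes tested, 63 parents, 186 other pseudogenes named -ps and 15734 remaining genes, with boxes from the first to the last quartile, whiskers at the 5th and 95th percentiles, the median in red and points for single genes (not drawn for the remaining genes). Right, each of 144 pseudogenes against its parent with a dotted line of equality, where 125 points lie above the line.

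Within the pseudogenes, the most parent-like copies had the smaller fold changes. The median log2 fold change was 0.46 over the 56 tested at 99% identity or more, 0.68 over the 38 from 98% up to 99% and 0.65 over the 43 from 95% up to 98%. With the length trend removed the medians were -0.03, 0.27 and 0.18 in that order. The level and the identity go together, so the same was seen along the level, with a Spearman's rho of -0.52 between mean CPM and log2 fold change over the 146, given as a description.

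The 10 pseudogenes with the smallest p were Rps2-ps7, Rps2-ps6, Rpsa-ps5, Rps2-ps8, Rpl21-ps6, Rps2-ps10, Rpl29-ps2, Rps19-ps1, Rpl28-ps3 and Rpl7-ps8. All were higher in CLO. DESeq2 called each of them, at adjusted p between 0.000328 and 0.0403. None passed by edgeR, where their adjusted p lay between 0.167 and 0.202. They were picked by p, so the lack of overlap between their groups adds nothing to it.

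Rps2-ps7, on chromosome 16 from 18500087 to 18500966, stood at 5.27, 7.15 and 7.15 CPM in CLO and at 2.73, 1.98 and 2.38 CPM in Ctrl. The lowest CLO library was above the highest Ctrl library. Its log2 fold change was 1.46 ± 0.23 (SE; edgeR, adjusted p = 0.167), a ratio of 2.75. It carried 20 substitutions against Rps2, and 22.1% of its 50-base words stood in the parent.

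Rps2-ps6, on chromosome 14 from 76474131 to 76474985, stood at 95.4, 92.2 and 88.8 CPM in CLO and at 53.5, 42.0 and 55.6 CPM in Ctrl. The CLO libraries lay close together and far above Ctrl. Its log2 fold change was 0.87 ± 0.15 (SE; edgeR, adjusted p = 0.167). With 1 library left out in turn it lay between 0.76 and 0.95.

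Rps2-ps8, on chromosome 17 from 31862872 to 31863753, stood at 52.9, 32.3 and 33.4 CPM in CLO and at 23.3, 16.4 and 21.8 CPM in Ctrl. CLO replicate 1 was the highest library by a wide margin. Its log2 fold change was 0.95 ± 0.22 (SE), and it fell to 0.69 with 1 library left out.

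Rps2-ps10 and Rps2-ps13 were the most abundant of the family. Rps2-ps10 stood at 139, 143 and 154 CPM in CLO and at 101, 80.4 and 98.6 CPM in Ctrl. Rps2-ps13, which is not among the 10 and was picked after its values were seen, stood at 110, 110 and 118 CPM in CLO and at 83.5, 63.9 and 78.3 CPM in Ctrl. In both the CLO libraries lay above all Ctrl libraries, with log2 fold changes of 0.64 ± 0.15 and 0.58 ± 0.15 (SE).

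The parent had another order of libraries. Rps2 stood at 546, 900 and 945 CPM in CLO and at 687, 610 and 709 CPM in Ctrl, a log2 fold change of 0.25 ± 0.20 (SE; edgeR, adjusted p = 0.562). Its lowest library was CLO replicate 1, in which the pseudogenes were not low. As a percent of the parent's counts, the 12 Rps2 pseudogenes therefore held 74.2% in CLO replicate 1, against 43.1% and 42.8% in CLO replicates 2 and 3 and 38.6%, 33.8% and 36.3% in Ctrl replicates 1 to 3.

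The remaining 6 of the 10 came from other families. Rpsa-ps5 is a copy of Rpsa, which encodes a small subunit protein also described as a laminin receptor, and was 92.3% identical to it. It stood at 6.79, 9.16 and 8.53 CPM in CLO and at 4.59, 2.47 and 3.34 CPM in Ctrl, a log2 fold change of 1.23 ± 0.25 (SE). Rpl21-ps6, 93.6% identical to Rpl21, stood at 4.72, 6.71 and 4.19 CPM in CLO and at 3.0, 1.94 and 1.92 CPM in Ctrl. In neither did the libraries of CLO and Ctrl overlap.

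Rps19-ps1 is a copy of Rps19, a small subunit gene whose human counterpart is mutated in Diamond-Blackfan anaemia. It stood at 5.96, 7.84 and 8.27 CPM in CLO and at 4.56, 3.81 and 3.46 CPM in Ctrl. Rpl29-ps2, a transcribed processed pseudogene by the annotation, stood at 10.8, 13.2 and 12.4 CPM in CLO and at 8.01, 6.13 and 7.03 CPM in Ctrl. In both, the lowest CLO library was replicate 1. Rpl28-ps3 stood at 10.2, 14.9 and 12.9 CPM in CLO and at 5.01, 7.70 and 7.53 CPM in Ctrl. Rpl7-ps8 stood at 6.35, 6.91 and 7.46 CPM in CLO and at 3.80, 2.43 and 4.46 CPM in Ctrl. Their 4 log2 fold changes lay between 0.78 and 0.95. Of their parents, Rpl29 had a log2 fold change of 0.18, Rps19 of 0.24, Rpl28 of 0.26 and Rpl7 of 0.14, and for each of these parents the groups overlapped.

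The 1 pseudogene with a lower fitted value in CLO was Rps4x-ps, a copy of the X-linked small subunit gene Rps4x. It stood at 0.394, 1.08 and 0.409 CPM in CLO and at 0.911, 0.635 and 0.538 CPM in Ctrl. The groups overlapped, and its log2 fold change of -0.14 ± 0.46 (SE) rests on 93 counts in all. Rps4x-ps is also the 1 pseudogene that passed the filter only through the Ctrl libraries. The filter could thus favour a lower value in CLO for it.

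Single libraries stood apart for whole families, and the 2 families described next were picked after their values were seen. In Ctrl replicate 1 the Rpl30 pseudogenes were far lower than in any other library, while Rpl30, which encodes a large subunit protein, was high. Rpl30-ps8 stood at 19.9, 27.2 and 31.4 CPM in CLO and at 2.16, 21.7 and 24.7 CPM in Ctrl. Ctrl replicate 1 was at 0.0914 of the median of the other 5 libraries. The ratio was 0.116 for Rpl30-ps10, 0.127 for Rpl30-ps9, 0.130 for Rpl30-ps1 and 0.305 for Rpl30-ps3.

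The parent went the other way in that library. Rpl30 stood at 136, 205 and 219 CPM in CLO and at 229, 157 and 180 CPM in Ctrl, with its highest value in Ctrl replicate 1. Of the counts of Rpl30 and its 9 pseudogenes together, the pseudogenes held 30.8%, 27.8% and 29.8% in CLO and 3.39%, 30.2% and 28.7% in Ctrl. The sum of the family did not set that library apart, at 205, 275 and 296 CPM in CLO and 250, 227 and 248 CPM in Ctrl (without TMM factors). Because of this library the log2 fold change of Rpl30-ps8 was 0.69 ± 0.69 (SE) with all libraries and 0.17 without Ctrl replicate 1. That of Rpl30 was -0.02 with all libraries and 0.14 without it. How reads were assigned between Rpl30 and its copies in that library, and whether its own sequence bears on that, was not tested, so the counts of single genes of this family there are uncertain.

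In the Rps13 family, of a small subunit gene, it was Ctrl replicate 3 that differed, and in the other direction. Rps13-ps1 stood at 20.2, 28.1 and 25.6 CPM in CLO and at 17.5, 16.1 and 35.5 CPM in Ctrl. Rps13-ps2, which is identical to Rps13 over its length, stood at 20.2, 27.6 and 25.6 CPM in CLO and at 18.4, 15.6 and 34.5 CPM in Ctrl. The levels of these 2 copies were nearly equal in every library, and Ctrl replicate 3 was the highest for both. Rps13-ps4, which carries C106A, G121C and T411C, stood at 17.0, 24.1 and 23.0 CPM in CLO and at 14.7, 11.9 and 12.8 CPM in Ctrl. It was not raised in Ctrl replicate 3, and its groups did not overlap. Rps13 itself, at 202, 283 and 301 CPM in CLO and 250, 188 and 185 CPM in Ctrl, was lowest in Ctrl replicate 3.

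**Figure D5:**
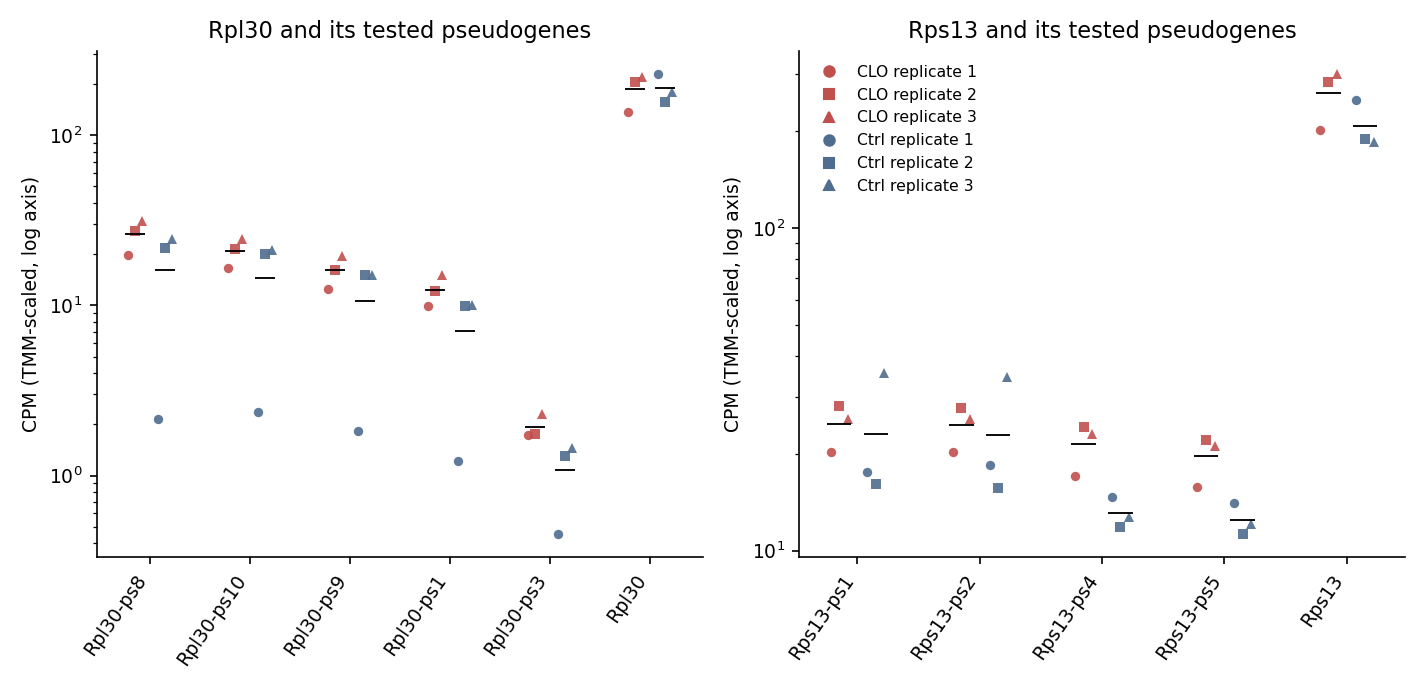
TMM-scaled CPM (log axis) in each library for Rpl30 and its 5 tested pseudogenes (left) and for Rps13 and its 4 tested pseudogenes (right), with CLO in red left of Ctrl in blue, 1 symbol a replicate and a black line at the group mean. Ctrl replicate 1 lies far below all other libraries for the Rpl30 pseudogenes but not for Rpl30, and Ctrl replicate 3 is the highest for Rps13-ps1 and Rps13-ps2 only.

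Such shifts of a single library were more frequent among the pseudogenes than among all genes in each of the 6 libraries. Among 136 pseudogenes with a mean of at least 1 CPM, 1.47%, 3.68% and 4.41% lay 2-fold or more from the median of the other libraries in CLO replicates 1 to 3, against 0.353%, 1.04% and 2.80% of 14451 genes. In Ctrl replicates 1 to 3 the shares were 5.15%, 9.56% and 5.15% of the pseudogenes, against 2.22%, 2.51% and 0.99% of genes. Of the 13 such pseudogenes in Ctrl replicate 2, 12 were low and 1, Rps25-ps1, was high. Rps25-ps1 was in turn low in Ctrl replicate 1, at 0.499 of the median of the others. In CLO replicates 2 and 3 the deviating pseudogenes were all high.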

How the data were processed

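The deposited tables hold whole-number read counts per gene, which are not normalized, and TPM values per gene, which the authors made from those counts and gene lengths (the counts and lengths give the deposited TPM back within 0.0005). Cutadapt 2.9, HISAT2 2.2.0, featureCounts 2.6.0 and the build GRCm39 are named in the submitters' processing notes. Neither the annotation release nor the settings for counting were stated in them. Gene positions are those deposited (GRCm39). The deposited length column served as gene length.

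The 1103 rows without gene annotation (0.640% to 0.780% of counts) were left out. CLO was compared with Ctrl (3 libraries each) over all genes by edgeR 4.0.16 in R 4.3.3, with its quasi-likelihood test (robust, two-sided, no block) after filterByExpr and TMM scaling, and with Benjamini-Hochberg adjustment at 0.05. The SE given with an edgeR log2 fold change was worked back from the test. It is the absolute log2 fold change divided by the square root of the F statistic. DESeq2 1.42.0 and limma 3.58.1 (voom) served as alternatives. For CLO against Ctrl on simulated counts of 15946 genes, edgeR recovered 99% of genes changed 4-fold and 74% of those changed 2-fold. The changed genes were drawn only from those above 1 CPM. Simulated counts varied independently from gene to gene, with no length trend and no reads shared between copies and parents. The simulation therefore does not give the power for these pseudogenes. Sequences are GENCODE M21 transcripts matched by gene identifier and aligned with Biopython 1.88, and no genome of the deposited build was used.

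Named are the 12 pseudogenes with the highest mean CPM, the 10 with the smallest p, any with a fold change below 0 (at most 5), those above their parent in counts, and their parents. The pseudogenes, lists and rules were chosen with earlier results of these data known. Some genes and sequences are not reported here.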

Additional observations from a re-analysis of the deposited data

How the results depend on the processing

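With 1 library left out, the median log2 fold change of the pseudogenes lay between 0.49 and 0.75 and their count higher at an unadjusted p under 0.05 between 49 and 120. That count was 49 without CLO replicate 2 and 51 without CLO replicate 3. The share of all genes at that p is not given for these fits. The swing can therefore not be read as one of the pseudogenes alone. No pseudogene passed in any of those fits, while 0 to 20 genes did over all. Genes past the threshold were 198 by DESeq2, 3561 by limma-voom with sample quality weights and 699 with no filter, of which 19, 112 and 31 were pseudogenes.

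With the length trend removed the pseudogene median moved to 0.13, the count at an unadjusted p under 0.05 to 19 and the median of pseudogene minus parent to 0.024. That difference was 0.36 without both Ctrl libraries that hold spermatid transcripts, an alternative chosen after seeing the data in which Ctrl replicate 3 is the lone control. It was assumed to vary like the CLO libraries. In the same fit the pseudogene median was 0.64. The cause of these shifts was not tested.

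Of the 40 named genes with a value, none passed by edgeR with all libraries, and 46 of 639 alternative values passed. Directions reversed in 20, none of them past the threshold. The alternative fits call very different shares of all genes, so no single share stands beside the 46. Some of the named genes were picked by p in these data, so the 46 is no measure of the pseudogenes as a class. With the length trend removed the log2 fold change was -0.37 for Rpl21-ps15, -0.12 for Rpl7a-ps11, -0.13 for Rpl17-ps10, -0.21 for Rpl17-ps5, -0.061 for Rpl17-ps8, -0.32 for Rpl17-ps3, -0.059 for Rps6-ps4, -0.035 for Rpl17-ps9, -0.27 for Rps12-ps3, -0.15 for Rps27a-ps2, -0.066 for Rpl9-ps6, -0.077 for Rpl29 and -0.011 for Rps4x. Rpl17-ps3 was at -0.013 without CLO replicate 2 or 3. Rps4x-ps was at 0.43 with quality weights, and 0.22 without both Ctrl libraries with spermatid transcripts, and between -0.782 and 0.104 with 1 library left out.

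Deviations of same-numbered samples from their group means correlated at -0.157, -0.0948 and 0.277, so the numbers were not taken to pair the samples. With the replicate block 0 pseudogenes passed, 79 were higher at an unadjusted p under 0.05, against 4.9% of all genes, and the median was 0.59. Depth limits the low copies most: the filter's limit was 0.434 CPM.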
